A study of Mus musculus with 10 samples.

Results

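A group of 9 genes of cytokine signalling and its feedback control were followed through a mild heat shock in mouse fibroblasts. They were Socs3, Nfkbia, Tnfaip3, Il6, Lif, Cxcl1, Ccl2, Ccl7 and Ptgs2, taken by name, and all probe sets annotated to them were read. They gave 20 of the 45101 probe sets on the array, and 9 of 18193 genes with a symbol of their own. Of the 9 genes, 7 were among the 10915 genes bright enough to be tested; Il6 and Ccl7 were below that filter.

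RNA came from mouse embryonic fibroblast (MEF) lines labelled MEF(-/-), an hsp70 knockout, and (+/+), an hsp70 rescue, called KO-labelled and rescue-labelled below. Preshocked cells were heated to 43 °C for 30 minutes after 20 hours in culture and harvested 3 hours later, and unheated cells were harvested after 23 hours. Arrays numbered 3 per treatment in the KO-labelled line and 2 per treatment in the rescue-labelled line, each hybridised with RNA pooled from 144 wells. All cells were in DMEM with serum and Normocin, in plates under a gas-permeable membrane. The labels do not say how the rescue was made, whether a line is a single clone, or whether the arrays of a group came from separate cultures, so p-values measure only the spread between these samples. A lower share of expressing cells and less RNA per cell cannot be told apart in such pools.

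Socs3 encodes a protein induced by cytokines of the interleukin-6 family through STAT3, and it shuts off signalling from their shared receptor gp130. NF-κB drives many inflammatory cytokines and chemokines in fibroblasts, and also its own inhibitors: Nfkbia encodes IκBα, which holds NF-κB in the cytoplasm, and Tnfaip3 encodes the ubiquitin-editing protein A20. Il6 and Lif are gp130 cytokines, Cxcl1 attracts neutrophils, Ccl2 and Ccl7 attract monocytes, and Ptgs2 (cyclooxygenase 2) makes prostaglandins. Heat shock is known to induce chaperone genes through the factor HSF1.

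Promoter sequence is shown for 4 genes whose values differ most in kind. They are Socs3, which rose in both lines, Il6 and Cxcl1, the cytokine genes with a probe set higher in every pair of arrays, and Nfkbia. Nfkbia had a probe set, 1420088_at, lower in every pair. Cxcl1 and Nfkbia did not pass the test, and Il6 was below the filter. Each sequence is the 250 bases before the RefSeq start on GRCm38.p6, given 5′ to 3′ on the gene's strand. Capitals mark matches to the motifs searched on both strands. The Socs3 window is chr11:117969367-117969616 on the minus strand, the Il6 window chr5:30012864-30013113 on the plus strand, the Cxcl1 window chr5:90890995-90891244 on the plus strand and the Nfkbia window chr12:55492648-55492897 on the minus strand.
Socs3: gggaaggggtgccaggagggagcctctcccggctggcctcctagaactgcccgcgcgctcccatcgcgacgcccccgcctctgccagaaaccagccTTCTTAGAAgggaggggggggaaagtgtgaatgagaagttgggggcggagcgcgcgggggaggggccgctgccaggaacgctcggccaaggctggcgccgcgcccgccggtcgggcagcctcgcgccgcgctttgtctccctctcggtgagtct
Il6: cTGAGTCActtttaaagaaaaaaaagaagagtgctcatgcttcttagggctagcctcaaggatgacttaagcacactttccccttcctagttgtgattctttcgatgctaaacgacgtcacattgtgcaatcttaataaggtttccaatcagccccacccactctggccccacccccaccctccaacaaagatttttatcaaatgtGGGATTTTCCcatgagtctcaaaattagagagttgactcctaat
Cxcl1: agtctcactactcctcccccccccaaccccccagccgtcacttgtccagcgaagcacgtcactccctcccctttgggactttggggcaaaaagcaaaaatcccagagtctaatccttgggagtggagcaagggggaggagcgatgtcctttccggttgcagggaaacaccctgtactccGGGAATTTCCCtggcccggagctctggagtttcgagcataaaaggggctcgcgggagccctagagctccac
Nfkbia: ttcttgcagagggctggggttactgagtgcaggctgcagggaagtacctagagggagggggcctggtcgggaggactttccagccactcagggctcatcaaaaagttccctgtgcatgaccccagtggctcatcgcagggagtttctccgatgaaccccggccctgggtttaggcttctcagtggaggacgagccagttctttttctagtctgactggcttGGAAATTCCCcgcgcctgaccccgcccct

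The capitals in the Socs3 window are a STAT motif, TTCNNNGAA, which starts 154 bases before the RefSeq start. In the Il6 window the first run is an AP-1 motif, TGANTCA, 249 bases before the start, and the second a match to the κB consensus 44 bases before it. The Cxcl1 run is a κB match on both strands, overlapping itself, and the Nfkbia run is a κB match 29 bases before the start. Entries existed for 7 of the 9 genes in 8 windows, since Tnfaip3 had 2. The κB consensus was in 5 of these 8 windows and in 7.25% of 32851 promoter windows of the same length. The genes were picked by name, among them NF-κB inhibitors and cytokine genes of the kind NF-κB drives. This share is therefore not an independent finding. The STAT motif was in 1 of 8 and in 7.02% of all windows, and the AP-1 motif in 3 of 8 and in 6.75%. Neither heat shock element letter pattern was found in the 8 windows: GAANNTTC was in 6.69% and TTCNNGAA in 7.17% of all windows. A match describes the letters of these windows and not a bound site.

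The arrays fell into 5 pairs with adjoining array numbers in the labels, 1 preshocked and 1 unheated array each: 5 and 6, 11 and 12, and 13 and 14 in the KO-labelled line, and 31 and 32, and 43 and 44 in the rescue-labelled line. Arrays 5 and 6 stood apart from the rest. Their median deposited intensities were 100.4 (array 5) and 107 (array 6), where those of the other 8 arrays lay between 50.7 and 73.7, and they were set apart on the first principal component, which held 35.3% of the variance. For some changes of the 9 genes that leaving them out moved, the value without them is given. Values of further probe sets and differences between the lines are mostly given with them only, so they may rest on arrays 5 and 6. The heat shock was visible in Hspa1b, which encodes an inducible Hsp70: its deposited intensity averaged 27373 ± 6477 in KO-labelled preshocked and 303 ± 151 in KO-labelled unheated arrays (SD, n = 3 each), and 31092 ± 9072 in rescue-labelled preshocked and 570 ± 149 in rescue-labelled unheated arrays (SD, n = 2 each). Hspa1b thus rose in the line labelled knockout as well, by 6.81 ± 0.37 (log2 ± SE, adjusted p = 0.000249), and that probe set goes against the line's label. The labels do not say which Hsp70 gene was removed or whether the probe set lies in the removed part. All directions between the lines below rest on these labels. Of 12 fibroblast markers 10 were tested, with Lum and Fap below the filter. The summed intensity of all 12 was 72040 to 119614 in KO-labelled preshocked and 73167 to 119301 in KO-labelled unheated arrays. It was 102200 to 110350 in rescue-labelled preshocked and 99906 to 101621 in rescue-labelled unheated arrays. Of 10 macrophage and leukocyte markers 3 passed the filter, and the defining Ptprc, Adgre1 and Itgam did not. The 3 were Cd14 (342 to 768 over all arrays), Csf1r (92.3 to 419) and Cd68 (64.1 to 164). Of 6 endothelial markers 2 passed, Kdr (13.9 to 239) and Esam (2.53 to 184). Of 6 epithelial markers 3 passed, Epcam (22.4 to 475), Krt8 (9.47 to 265) and Krt5 (15.8 to 312). The sum of all 10 leukocyte markers was 790 to 1417 in KO-labelled preshocked and 831 to 1984 in KO-labelled unheated arrays. It was 915 to 1019 in rescue-labelled preshocked and 911 to 942 in rescue-labelled unheated arrays. No marker of fibroblasts, leukocytes, endothelium or epithelium was called in any comparison, and the part of other cell types in the results was not tested.

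Socs3 was the only one of the 7 tested genes that passed the test after preshock, and it rose in both lines. Its probe set 1455899_x_at had deposited intensities of 1596, 1368 and 1291 in KO-labelled preshocked arrays 5, 11 and 13, against 602, 588 and 523 in KO-labelled unheated arrays 6, 12 and 14. In the rescue-labelled line it had 1215 and 991 in preshocked arrays 31 and 43, against 403 and 323 in unheated arrays 32 and 44. Every preshocked array lay above every unheated array, of either line. The share of all genes with that separation over both lines is not given here. Within a line, 5.63% of all genes tested were higher without overlap in the KO-labelled and 16.4% in the rescue-labelled line. The group means were 1418 ± 159 in KO-labelled preshocked and 571 ± 42.4 in KO-labelled unheated arrays (SD, n = 3 each), and 1103 ± 158 in rescue-labelled preshocked and 363 ± 57.1 in rescue-labelled unheated arrays (SD, n = 2 each).

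**Figure D1:**
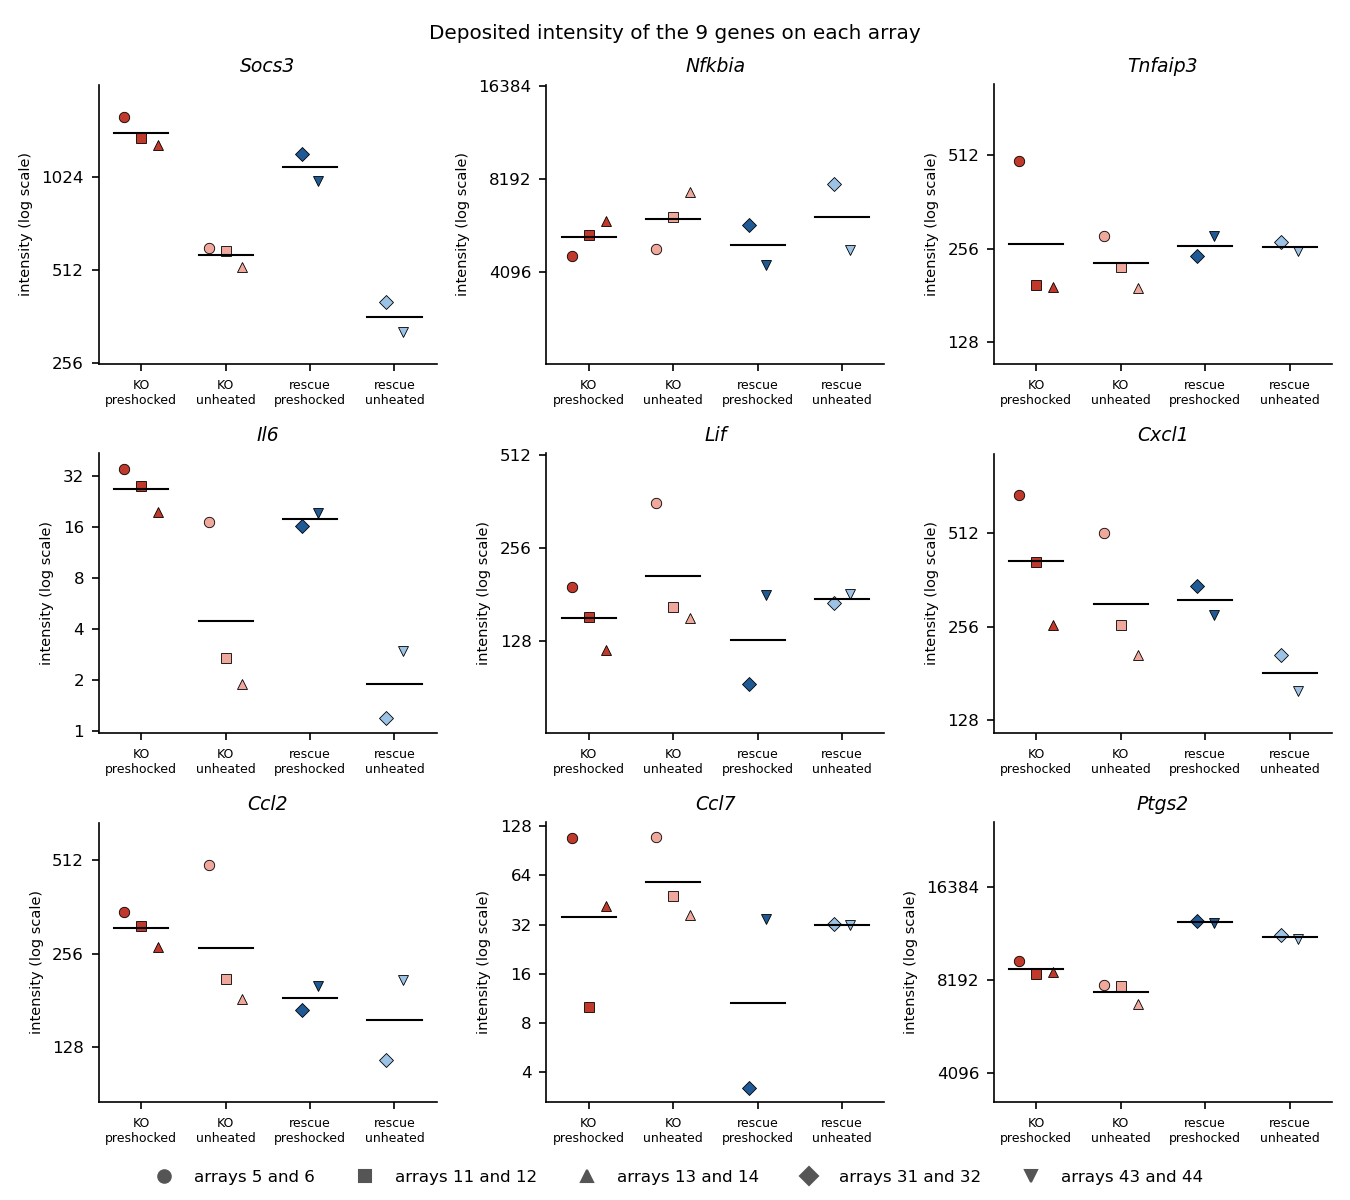
Deposited intensity (log axis, a separate range for each gene) of the 9 genes in each array, 1 probe set per gene, for the 4 groups; symbols mark array pairs and horizontal bars are the geometric mean of a group. The Socs3 panel has all 5 preshocked arrays, 991 to 1596, above all 5 unheated arrays, 323 to 602, while the groups overlap in most other panels.

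After quantile normalization the Socs3 change was 1.39 ± 0.16 (log2 ± SE), or 2.62-fold, in the KO-labelled line, with an adjusted p of 0.00827 by limma and a 95% interval of 1.01 to 1.76. It was 1.65 ± 0.20, or 3.14-fold, in the rescue-labelled line, with an adjusted p of 0.0164 and an interval of 1.19 to 2.11. That made 1 of 7 tested genes called in the KO-labelled line, where 1.77% of all genes tested were called, and 1 of 7 in the rescue-labelled line, where 0.357% were called. Socs3 ranked 96th by change in the KO-labelled line and 64th in the rescue-labelled line among 10915 genes. In the KO-labelled line the call held without any single array, with adjusted p between 0.0114 and 0.0425, and without the pair 5 and 6 (1.33, adjusted p = 0.0415). It ended with median centring in place of quantile normalization (adjusted p = 0.131) and with no filter on dim genes (adjusted p = 0.0550). In the rescue-labelled line leaving out any of its own 4 arrays ended the call, with adjusted p between 0.0501 and 0.152 and changes between 1.44 and 1.85, as did median centring (0.282) and no filter (0.0846).

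The other probe sets of Socs3 had the same direction in all 5 array pairs. Probe set 1456212_x_at had 1130.2, 898 and 736 in KO-labelled preshocked arrays, against 591, 341 and 302 in KO-labelled unheated arrays, and 708 and 716 in rescue-labelled preshocked arrays, against 300.4 and 300.2 in rescue-labelled unheated arrays. Probe set 1416576_at had 518, 421 and 422 in KO-labelled preshocked arrays, against 311, 211 and 122 in KO-labelled unheated arrays, and 383 and 520.0 in rescue-labelled preshocked arrays, against 125 and 194 in rescue-labelled unheated arrays. Neither showed overlap between preshocked and unheated arrays of a line. Over the 3 probe sets the change within a pair lay between 0.93 and 1.80 on the log2 scale.

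The other probe sets were tested in a gene table that holds all 20 probe sets of the 9 genes, a table chosen after the data were seen. There 1456212_x_at changed by 1.30 ± 0.22 in the KO-labelled line (adjusted p = 0.0292) and 1416576_at by 1.29 ± 0.23 (adjusted p = 0.0351), where 1.79% of all rows were called. In the rescue-labelled line their values were 1.30 ± 0.27 (adjusted p = 0.116) and 1.52 ± 0.29 (adjusted p = 0.0867), short of the threshold, where 0.357% were called. With the array pair as a block the first of these passed (adjusted p = 0.0363) and the second did not (adjusted p = 0.0568). With all 45037 probe sets of the array in the fit, 0 of the 20 probe sets were called after preshock, where 0.06% were called in the KO-labelled and 0.0244% in the rescue-labelled line. In that fit the Socs3 probe sets had adjusted p between 0.115 and 0.254 in the KO-labelled line and between 0.207 and 0.477 in the rescue-labelled line. Among the brightest 60% of probe sets, which held 18 of the 20, 1 was called in the KO-labelled line, Socs3 1455899_x_at (adjusted p = 0.0264), where 0.485% of those probe sets were called.

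**Figure D2:**
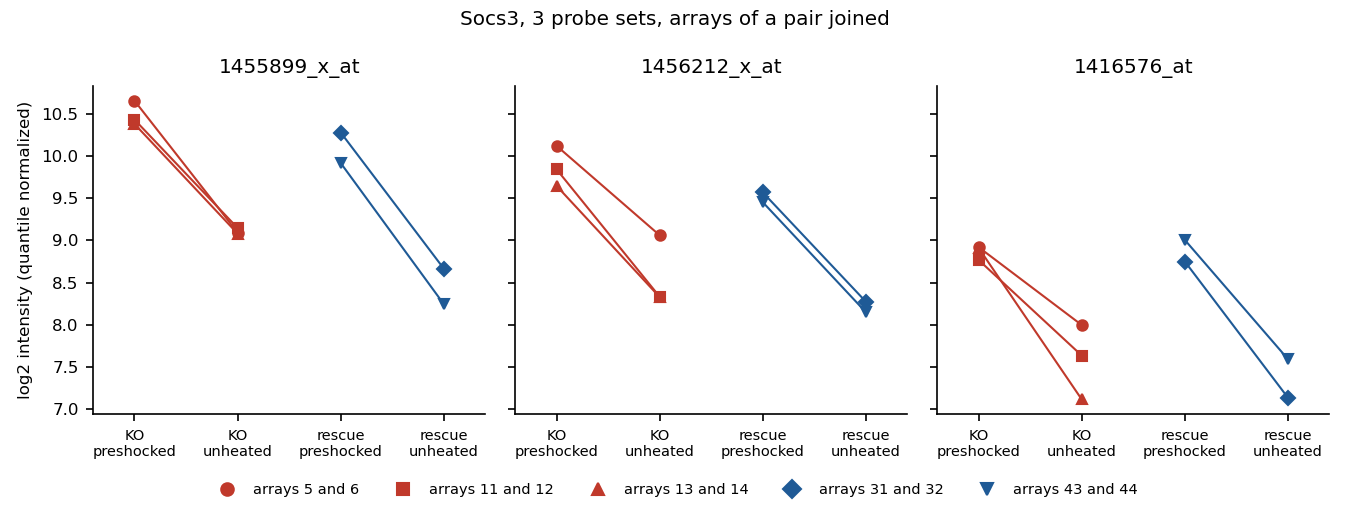
Quantile-normalized log2 intensity of the 3 Socs3 probe sets in each array, with lines joining the preshocked and the unheated array of a pair, KO-labelled arrays in red and rescue-labelled arrays in blue. The preshocked array is higher in all 5 pairs at each probe set, by 0.93 to 1.80.

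The size of the Socs3 response did not differ detectably between the lines. The KO-labelled response minus the rescue-labelled response was -0.26 ± 0.26 (adjusted p = 1), with a 95% interval of -0.86 to 0.33, so a response smaller by up to 0.86 or larger by up to 0.33 in the KO-labelled line is within the error. At 1455899_x_at unheated cells of the KO-labelled line had 523 to 602, against 323 to 403 in unheated cells of the rescue-labelled line, without overlap, as for 16.3% of genes in that direction. At this probe set the difference of 0.66 ± 0.18 had an unadjusted p of 0.00668 and an adjusted p of 0.203 by limma, short of the threshold, and it was 0.12 with median centring (adjusted p = 0.814). It was 0.36 ± 0.25 at 1456212_x_at (adjusted p = 0.559) and 0.22 ± 0.26 at 1416576_at (adjusted p = 0.750), where the groups overlapped. Array 6 was the highest unheated array at both, at 9.06 and 7.99 (log2). At 1456212_x_at KO-labelled arrays 12 and 14 had 8.33 and 8.33, against 8.27 and 8.15 in rescue-labelled arrays 32 and 44. At 1416576_at arrays 12 and 14 had 7.63 and 7.11, against 7.13 and 7.59 in arrays 32 and 44. In preshocked cells the difference at 1455899_x_at was 0.39 ± 0.18 (adjusted p = 0.377), and with median centring it was -0.10.

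The genes whose pattern over the 10 arrays was most like that of Socs3, by root mean square difference of centred log2 values, were Spty2d1 (0.179), Vegfa (0.208), which encodes an angiogenic growth factor, and L3mbtl3 (0.221). Spty2d1 rose by 1.64 in the KO-labelled line (adjusted p = 0.00916), and its change was 1.54 in the rescue-labelled line (adjusted p = 0.0546). Vegfa rose by 1.44 in the KO-labelled line (adjusted p = 0.0138), beside 1.41 in the rescue-labelled line (adjusted p = 0.0716). L3mbtl3 rose in both, by 1.39 (adjusted p = 0.0119) in the KO-labelled and 1.59 (adjusted p = 0.0307) in the rescue-labelled line. These genes were picked for their likeness to Socs3, so their direction is part of the choice.

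The 2 inhibitors of NF-κB did not pass the test in either line. Nfkbia, at 1420088_at, had 4624, 5418 and 6005 in KO-labelled preshocked arrays, against 4870.0, 6159 and 7468 in KO-labelled unheated arrays. It had 5835 and 4339.9 in rescue-labelled preshocked arrays, against 7885 and 4838 in rescue-labelled unheated arrays. The groups overlapped in both lines, although the preshocked array was the lower one in each of the 5 pairs, by 0.12 to 0.49 on the log2 scale. The changes were -0.26 ± 0.19 (adjusted p = 0.765) in the KO-labelled line and -0.34 ± 0.24 (adjusted p = 0.888) in the rescue-labelled line. Across its 5 probe sets the change ranged between -0.26 and 0.04 in the KO-labelled line and between -0.34 and -0.02 in the rescue-labelled line, and the other 4 did not share one direction in all pairs.

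Tnfaip3, at 1433699_at, had 491, 196 and 192 in KO-labelled preshocked arrays, against 281, 224 and 191 in KO-labelled unheated arrays, and 243 and 282 in rescue-labelled preshocked arrays, against 268 and 251 in rescue-labelled unheated arrays. Array 5 alone was high, and the groups overlapped in both lines. The changes were 0.34 ± 0.28 (adjusted p = 0.808) in the KO-labelled and 0.12 ± 0.35 (adjusted p = 0.9997) in the rescue-labelled line. Without arrays 5 and 6 the KO-labelled change was -0.0019. The dimmer 1450829_at had 166, 83.3 and 43.6 in KO-labelled preshocked arrays, against 86.2, 64.4 and 8.05 in KO-labelled unheated arrays, and 32.3 and 107 in rescue-labelled preshocked arrays, against 43.3 and 62.4 in rescue-labelled unheated arrays.

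Il6 was among the dimmest genes of the array, and was higher in the preshocked array of each pair. Its only probe set, 1450297_at, had 35.02, 27.9 and 19.6 in KO-labelled preshocked arrays, against 17.1, 2.69 and 1.91 in KO-labelled unheated arrays. It had 16.2 and 19.3 in rescue-labelled preshocked arrays, against 1.20 and 2.97 in rescue-labelled unheated arrays. The groups did not overlap within a line. Of the genes tested, 5.63% in the KO-labelled and 16.4% in the rescue-labelled line were higher without overlap. Array 6, unheated, stood far above the other unheated arrays and on the deposited scale reached the range of the rescue-labelled preshocked arrays. After quantile normalization it was at 3.21 (log2), below the 4.36 and 4.61 of rescue-labelled preshocked arrays 31 and 43. The change within a pair was 1.19 in arrays 5 and 6, and between 2.79 and 3.74 in the other 4 pairs.

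Il6 lay below the filter, so the gene fit gave it no test. In the fit over all probe sets its change was 2.75 ± 0.58 (adjusted p = 0.244) in the KO-labelled line and 3.15 ± 0.71 (adjusted p = 0.393) in the rescue-labelled line. In the table that holds all 20 probe sets, chosen after seeing the data, its change of 2.75 ± 0.54 had an adjusted p of 0.0469 in the KO-labelled line, and 3.15 ± 0.66 one of 0.116 in the rescue-labelled line. Without the pair 5 and 6 it passed in both, at 3.56 (adjusted p = 0.00770) in the KO-labelled and 3.19 (adjusted p = 0.0119) in the rescue-labelled line. The KO-labelled call was kept in 3 of the 17 alternatives run: with the array pair as a block, without arrays 5 and 6, and without array 6. In the rest it ended, with adjusted p between 0.0622 (median centring) and 0.359 (robust and trended variance prior). The KO-labelled response minus the rescue-labelled response was -0.40 ± 0.85, with a 95% interval of -2.36 to 1.55. Signals this low have no background measure in the deposited table, so their fold changes are not firm.

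Lif, the other gp130 cytokine, did not pass the test in either line. At 1421207_at it had 191, 153 and 120.0 in KO-labelled preshocked arrays, against 358, 165 and 152 in KO-labelled unheated arrays, and 93.1 and 180.4 in rescue-labelled preshocked arrays, against 169 and 181 in rescue-labelled unheated arrays. The groups overlapped in both lines, and array 6 was the highest of all. The changes were -0.45 ± 0.28 (adjusted p = 0.659) in the KO-labelled and -0.31 ± 0.35 (adjusted p = 0.9997) in the rescue-labelled line. Without array 6 the KO-labelled change was -0.15 (adjusted p = 0.879), and without arrays 5 and 6 it was -0.15 (adjusted p = 0.930). Its dim second probe set, 1450160_at, lay between 6.35 and 88.4 over all arrays with no common direction among the pairs.

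Among the chemokines Cxcl1 came closest to the threshold. At 1441855_x_at it had 679, 414 and 258.4 in KO-labelled preshocked arrays, against 515, 258.5 and 207 in KO-labelled unheated arrays, which overlapped. It had 348 and 279 in rescue-labelled preshocked arrays, against 207 and 158 in rescue-labelled unheated arrays, which did not. The changes were 0.58 ± 0.36 (adjusted p = 0.651) in the KO-labelled and 0.82 ± 0.44 (adjusted p = 0.738) in the rescue-labelled line, and the preshocked array was the higher one in all 5 pairs, by 0.39 to 0.83. With the array pair as a block the KO-labelled change had an adjusted p of 0.0422 and the rescue-labelled change one of 0.0575. That block moved the count of tested genes called among the 7 to 2 in the KO-labelled line, where 9.15% of all genes were then called, against 1 without it.

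The other Cxcl1 probe sets were tested in the table that holds all 20. In the KO-labelled line 1457644_s_at had 516, 224 and 224 in preshocked arrays, against 655, 296 and 163 in unheated arrays, and 1419209_at had 288, 341 and 241 in preshocked arrays, against 426, 212 and 174 in unheated arrays. These overlapped, and the changes were -0.04 and 0.25, not called. In the rescue-labelled line 1457644_s_at had 459.5 and 381 in preshocked arrays, against 182 and 163 in unheated arrays, and 1419209_at had 439 and 605 in preshocked arrays, against 212 and 211 in unheated arrays. Neither overlapped there, nor did 1441855_x_at, beside 16.4% of genes tested that were higher without overlap in that line. The changes of 1.28 ± 0.54 (adjusted p = 0.566) at 1457644_s_at and 1.31 ± 0.33 (adjusted p = 0.201) at 1419209_at did not pass. Without arrays 5 and 6 the brightest Cxcl1 probe set was 1419209_at, at which the KO-labelled change was 0.71 (adjusted p = 0.148) and the rescue-labelled change passed the test at 1.36 (adjusted p = 0.0384). The KO-labelled response minus the rescue-labelled response was -0.24 ± 0.57 at 1441855_x_at, -1.32 ± 0.69 at 1457644_s_at and -1.06 ± 0.42 at 1419209_at. Their unadjusted p were 0.683, 0.0923 and 0.0349, and their adjusted p by limma was 1 at each, in a test that called 0% of genes. With the array pair as a block the unadjusted p at 1457644_s_at was 0.00730 and the adjusted p 0.900. The pair 5 and 6 weighed on these differences. At 1419209_at it changed by -0.59, against 0.82 in arrays 11 and 12 and 0.53 in arrays 13 and 14. At 1457644_s_at it changed by -0.32, against -0.29 in arrays 11 and 12 and 0.50 in arrays 13 and 14.

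The monocyte chemokines did not pass the test. Ccl2 had 349.8, 313 and 268 in KO-labelled preshocked arrays, against 495, 212 and 182 in KO-labelled unheated arrays, and 168 and 201 in rescue-labelled preshocked arrays, against 116 and 209.9 in rescue-labelled unheated arrays. The groups overlapped in both lines, and array 6 was again the highest. The changes were 0.28 ± 0.31 (adjusted p = 0.924) in the KO-labelled and 0.30 ± 0.38 (adjusted p = 0.9997) in the rescue-labelled line. Without array 6 the KO-labelled change was 0.67 (adjusted p = 0.205), and without arrays 5 and 6 it was 0.70 (adjusted p = 0.242). Ccl7, below the filter, had 108, 10.0 and 41.7 in KO-labelled preshocked arrays, against 109.9, 48.2 and 36.8 in KO-labelled unheated arrays, and 3.20 and 34.7 in rescue-labelled preshocked arrays, against 32.3 and 31.6 in rescue-labelled unheated arrays. The groups overlapped in both lines, and in the table that holds all 20 probe sets the change was -0.56 ± 0.90 (adjusted p = 0.979) in the KO-labelled and -1.55 ± 1.10 (adjusted p = 0.889) in the rescue-labelled line.

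Ptgs2 was bright in every array and did not pass the test in either line. At 1417262_at it had 9456, 8599 and 8729 in KO-labelled preshocked arrays, against 7882, 7818 and 6888 in KO-labelled unheated arrays, and 12691 and 12555 in rescue-labelled preshocked arrays, against 11453 and 11129 in rescue-labelled unheated arrays. On the deposited scale the groups did not overlap in either line, but after quantile normalization they overlapped in both. The changes were then 0.16 ± 0.19 (adjusted p = 0.946) in the KO-labelled and 0.05 ± 0.24 (adjusted p = 0.9997) in the rescue-labelled line. Both KO-labelled groups lay below both rescue-labelled groups on the deposited scale, but after normalization the preshocked groups of the lines overlapped. The KO-labelled minus rescue-labelled difference was -0.50 ± 0.21 in unheated cells (unadjusted p = 0.0484, adjusted p = 0.384) and -0.39 ± 0.21 in preshocked cells (adjusted p = 0.445). Its size depended on the processing. Over all alternatives run it lay between -1.13 and -0.34 in unheated and between -0.97 and -0.28 in preshocked cells. The second probe set, 1417263_at, had 2512, 2212 and 1781 in KO-labelled preshocked arrays, against 2305, 2431 and 1928 in KO-labelled unheated arrays, and 2867 and 7173 in rescue-labelled preshocked arrays, against 2901 and 5316 in rescue-labelled unheated arrays.

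**Figure D3:**
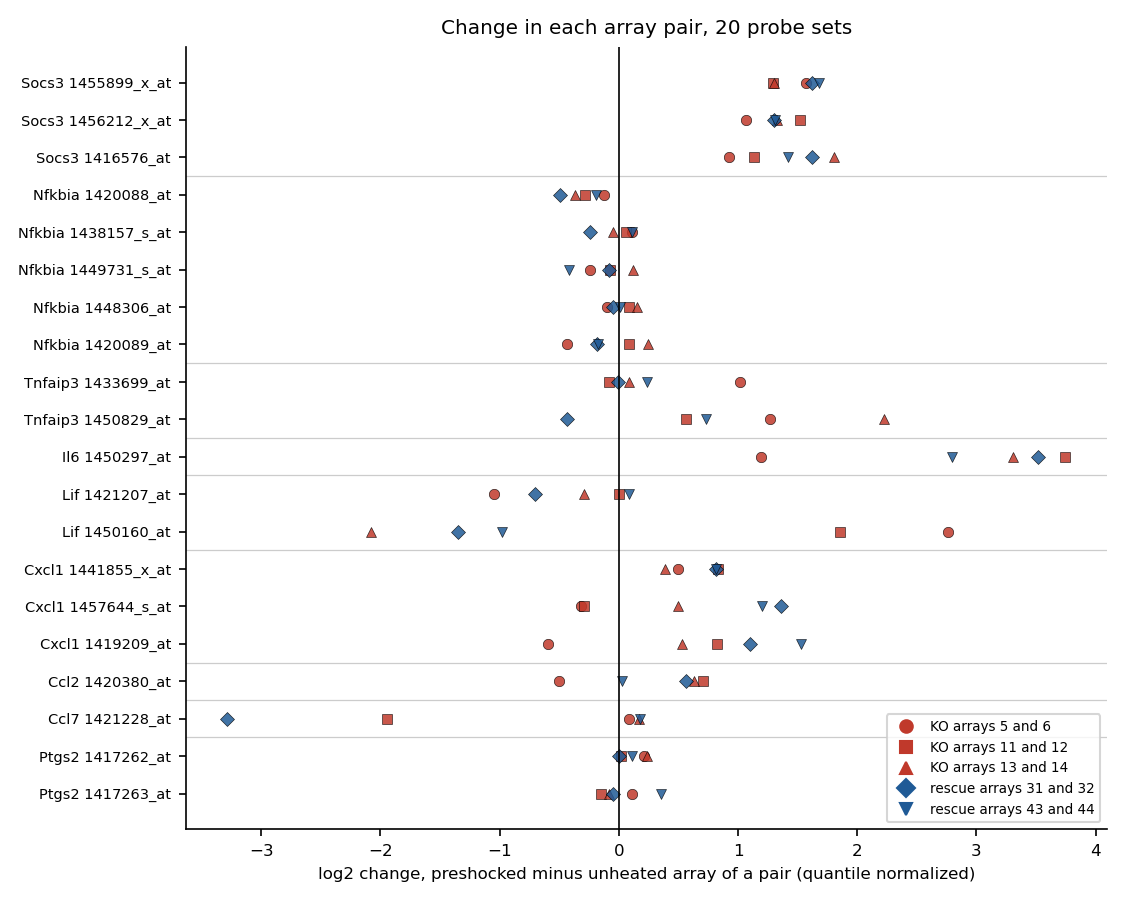
Log2 change of each of the 20 probe sets in each of the 5 array pairs, preshocked minus unheated array, with KO-labelled pairs in red and rescue-labelled pairs in blue. The 3 Socs3 probe sets, Il6 and Cxcl1 1441855_x_at lie right of 0 in all 5 pairs, and Nfkbia 1420088_at lies left of 0 in all 5.

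Over the 20 probe sets, 5 were higher in the preshocked array of all 5 pairs, against 9.34% of all probe sets, and 1 was lower in all, against 10.7%. Of the 5, 3 were probe sets of Socs3, 1 was the dim probe set of Il6 and 1 was among the 3 of Cxcl1. They are therefore not 5 separate genes. The median change of the 7 tested genes was 0.28 in the KO-labelled and 0.12 in the rescue-labelled line, beside -0.04 in the KO-labelled and -0.03 in the rescue-labelled line over all genes tested. The 6 tested genes other than Socs3 had changes between -0.45 and 0.58 in the KO-labelled and between -0.34 and 0.82 in the rescue-labelled line. The difference of responses lay between -0.26 and 0.22 for the 7 genes at 1 probe set each, with 0 of 7 called. Between the lines 0 of 7 were called in unheated cells, where 0.421% of genes were called, and 0 of 7 in preshocked cells, where 0.339% were. Those differences, at 1 probe set a gene, ranged between -0.50 and 0.66 in unheated and between -0.39 and 0.63 in preshocked cells, with Ccl2 at 0.66 ± 0.35 (adjusted p = 0.464; 0.29 without arrays 5 and 6) in unheated and 0.63 ± 0.35 (adjusted p = 0.450) in preshocked cells. Some other probe sets, in the table that holds all 20, went beyond that without being called. In preshocked cells Ptgs2 1417263_at differed by -1.02 ± 0.41 (adjusted p = 0.320) and Cxcl1 1419209_at by -0.90 ± 0.30 (adjusted p = 0.258). Nfkbia 1420089_at differed by 0.78 ± 0.23 (adjusted p = 0.217), while Nfkbia 1448306_at went the other way, at -0.41 ± 0.22 (adjusted p = 0.437).

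**Figure D4:**
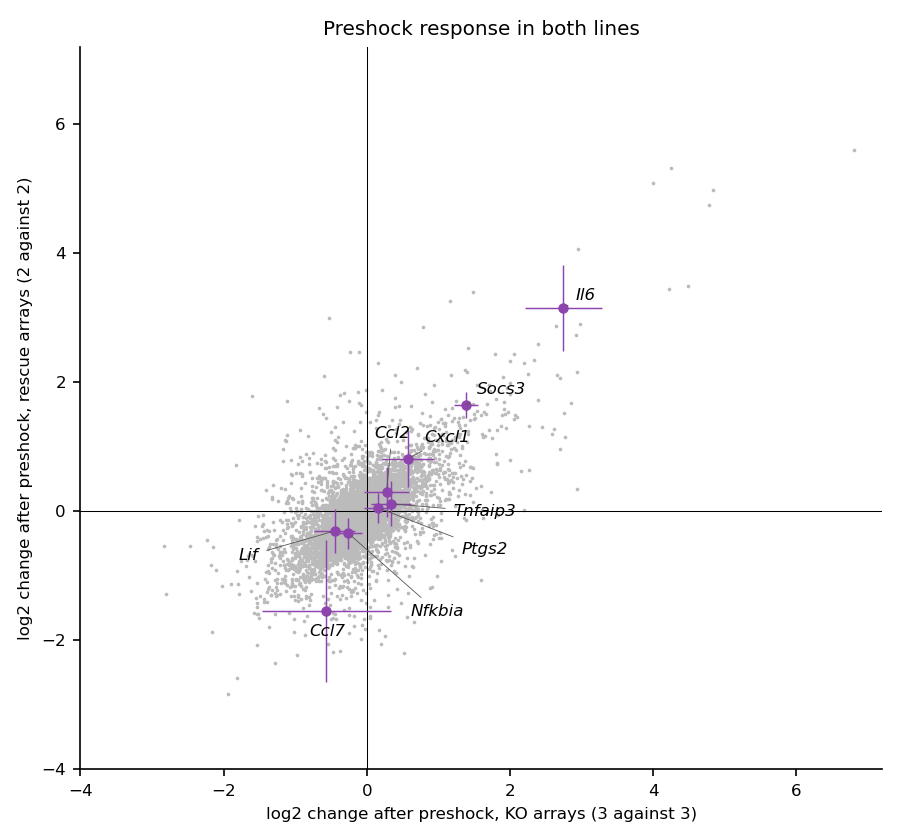
Log2 change after preshock in the KO-labelled line (x axis, 3 against 3 arrays) and the rescue-labelled line (y axis, 2 against 2 arrays); purple points are the 9 genes with bars of 1 standard error, grey points all genes tested. Socs3, at 1.39 and 1.65, and Il6, at 2.75 and 3.15, lie in the upper right, and the rest lie near the origin or below it, with wide bars for Ccl7.

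Of the wider pathway, 7 lists held 112 genes, of which 106 were on the array and 76 were tested. In the KO-labelled line 1 of the 76 rose and 1 fell, 2.63% called beside 1.77% of all genes, and in the rescue-labelled line 0 were called, with 9 of the 76 at an unadjusted p under 0.05 by limma, beside 8.36% of all genes. Counts by list below are without the array pair as a block. The 11 tested NF-κB subunits and kinases had a median change of -0.02 in both lines, with none called. The 10 other NF-κB feedback and target genes had medians of -0.15 in the KO-labelled and -0.11 in the rescue-labelled line, with none called. The 11 other cytokines and chemokines had -0.03 in the KO-labelled and 0.18 in the rescue-labelled line, again with none called. The 19 genes of gp130 and STAT signalling had medians of -0.12 in the KO-labelled and 0.0047 in the rescue-labelled line, and the 6 genes of prostaglandin synthesis 0.11 in the KO-labelled and 0.10 in the rescue-labelled line, with none called.

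The gene that rose was Dusp1, a phosphatase that inactivates MAP kinases, from the list of 12 genes of AU-rich mRNA decay (median 0.26 in the KO-labelled and 0.12 in the rescue-labelled line). It had 4403, 5258 and 5394 in KO-labelled preshocked arrays, against 1535, 2494 and 2731 in KO-labelled unheated arrays, and 6415 and 7055 in rescue-labelled preshocked arrays, against 3010.4 and 3191 in rescue-labelled unheated arrays. No groups overlapped within a line, beside 5.63% of genes tested that were higher without overlap in the KO-labelled and 16.4% in the rescue-labelled line. Its change was 1.17 ± 0.21 (adjusted p = 0.0330) in the KO-labelled and 1.06 ± 0.26 (adjusted p = 0.187) in the rescue-labelled line. The gene that fell was Tnfrsf1b, a receptor of tumour necrosis factor, among 7 tested receptors (median -0.25 in the KO-labelled and -0.23 in the rescue-labelled line). It had 328, 219 and 237 in KO-labelled preshocked arrays, against 623, 529 and 525 in KO-labelled unheated arrays, and 189 and 329.9 in rescue-labelled preshocked arrays, against 594 and 579 in rescue-labelled unheated arrays. Its change was -1.05 ± 0.18 (adjusted p = 0.0310) in the KO-labelled and -1.07 ± 0.23 (adjusted p = 0.120) in the rescue-labelled line.

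Both calls were fragile. The Dusp1 call ended when any of 9 of the 10 arrays was left out, and the Tnfrsf1b call for any of 8, with adjusted p up to 0.128 in each case. Without arrays 5 and 6 Dusp1 passed in both lines, at 0.97 (adjusted p = 0.0432) in the KO-labelled and 1.08 (adjusted p = 0.0398) in the rescue-labelled line, and Tnfrsf1b in neither. With the array pair as a block 3 of the 76 genes rose and 8 fell in the KO-labelled line, where 9.15% of all genes were called. Of the 8, there was 1 in the list of NF-κB subunits and kinases, 2 among the other NF-κB feedback and target genes, 2 among the other cytokines and chemokines, 2 in gp130 and STAT signalling, and Tnfrsf1b among the receptors. The genes added by the block are named here after their values were seen. Those of NF-κB that fell were Nfkbie, which encodes the inhibitor IκBε, by 0.98, Ikbkg, the regulatory subunit of the IκB kinase, by 0.34, and Tnfaip2, a gene induced by tumour necrosis factor, by 0.53. Socs4, a relative of Socs3, fell by 0.57 and Osmr, the oncostatin M receptor that pairs with gp130, by 0.75. Csf1, a macrophage growth factor, fell by 0.67 and the chemokine Cxcl12 by 0.52. Adjusted p with the block lay between 0.0240 and 0.0405 for these genes, and between 0.221 and 0.649 without it. The 2 that then also rose were Zfp36l1, an mRNA decay factor, by 0.76 (adjusted p = 0.0267 with the block), and Elavl1, an AU-rich RNA binding protein, by 0.34 (adjusted p = 0.0416 with the block). In the rescue-labelled line 1 of the 76 genes fell with the block, Csf1 (-1.08, adjusted p = 0.0466), where 164 of the 10915 genes tested were called in either direction.

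**Figure D5:**
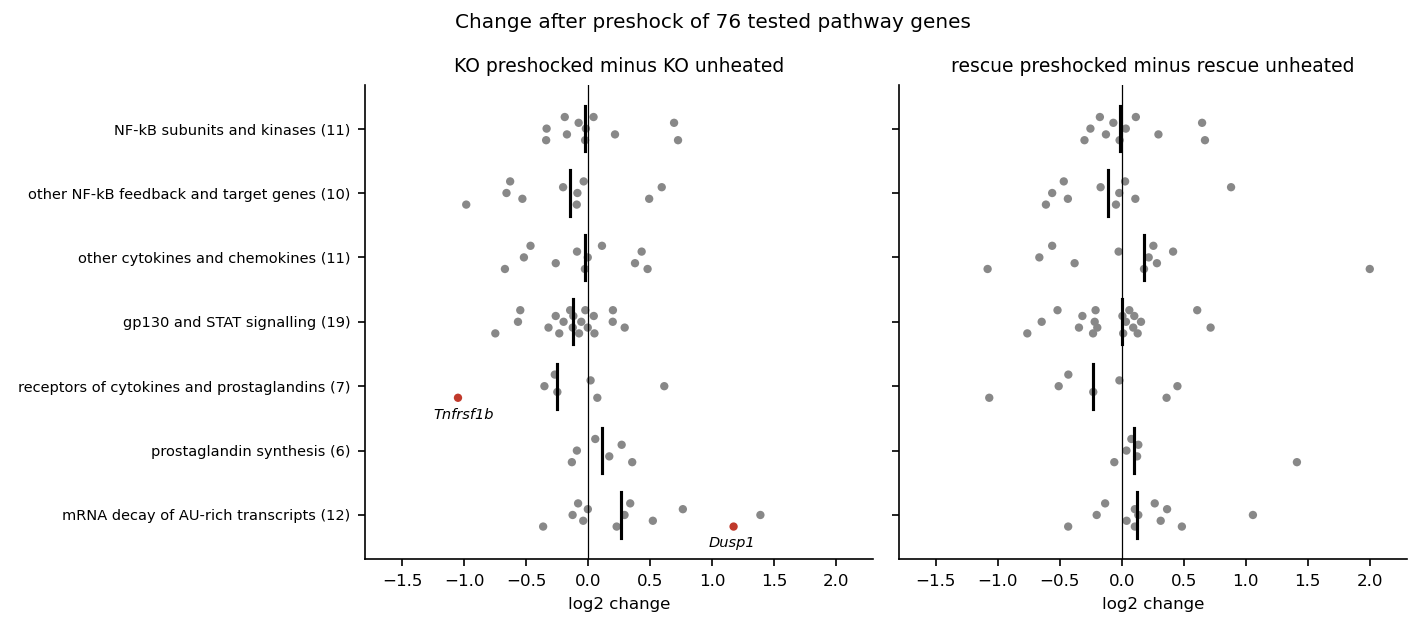
Log2 change after preshock of the tested genes of 7 pathway lists (number tested in brackets), KO-labelled line on the left and rescue-labelled line on the right; black bars are list medians and red points genes called at an adjusted p under 0.05. Dusp1, at 1.17, and Tnfrsf1b, at -1.05, are the only genes called in the fit without the pair block, both in the KO-labelled line.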

How the data were processed

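Expression was measured on 10 Affymetrix mouse arrays, 1 per sample. The authors deposited 1 linear intensity per probe set for each array; the summarisation software was not given in the sources used here. Per the labels, 1.5 µg of total RNA was labelled in a one-cycle protocol. The trimmed mean intensity was 500.003 to 500.004 in every array.

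Values under 1 were set to 1, and log2 values were quantile normalized, because array medians differed by up to 1.08 on the log2 scale. The brightest probe set of each gene was kept, and the top 60% of genes by mean were tested. limma 3.58.1 (R 4.3.3, statmod 1.5.0) fitted the 4 groups in one model, and Benjamini-Hochberg adjusted p under 0.05 was a call. The table holds no detection call, and precision is limited by the number of arrays. Each named result is a gene of the 9, a called gene of a pathway list, or one of the 3 genes most like Socs3. The 9 genes, the lists and the tests were chosen with earlier results of these data known.

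Adjoining array numbers were taken as pairs after a check: deviations from group means correlated at 0.721, 0.376, 0.552, 0.370 and 0.370 within the 5 pairs (the last 2 are equal because those groups hold 2 arrays), and each array correlated best with its own partner. The pairing is a feature of the array numbers in the labels, which do not say what the numbers mark. Alternatives covered median centring, the deposited scaling, filters, the floor, probe set choice, the variance prior, the pair block and arrays left out. The fit was tested on simulated data. Promoter windows came from RefSeq.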

Additional observations from a re-analysis of the deposited data

How the results depend on the processing

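The calls rest on few arrays, and the table holds no background measure against which dim signals such as Il6 can be read. The call of Socs3 in the KO-labelled line held without each array in turn (log2 1.31 to 1.43), and its direction held under every alternative run in both preshock comparisons. With median centring 28 genes were called after preshock in the KO-labelled line (25 higher, where quantile normalization had 103 of 193 higher), 7 in the rescue-labelled line, 22 between preshocked lines, and 0 of the 7 tested genes in either line. With no filter on dim genes the counts were 28 (KO-labelled), 10 (rescue-labelled), 1 (difference of responses), 10 (unheated lines) and 6 (preshocked lines), with 0 of the 7 tested genes called after preshock in either line. With the mean of all probe sets they were 101 (KO-labelled), 20 (unheated lines) and 9 (preshocked lines). With the array pair as replicate block they were 999 (KO-labelled, 364 higher), 164 (rescue-labelled), 22 (unheated lines) and 16 (preshocked lines), and 2 of the 7 tested genes were called in the KO-labelled line; beyond those given in the report, the block changed no call of the 9 genes. Without arrays 5 and 6 they were 88 (rescue-labelled), 95 (unheated lines) and 63 (preshocked lines), and 2 of the 7 tested genes were called in the rescue-labelled line. Without each array in turn they ranged between 49 and 142 (KO-labelled), 10 and 59 (rescue-labelled), 5 and 43 (unheated lines) and 0 and 46 (preshocked lines), and between 0 and 1 of the 7 tested genes were called in the rescue-labelled line; a rescue-labelled array left alone in its group is assumed to vary like the other groups. Among the brightest 60% of probe sets, 1 of the 20 was called in the KO-labelled line, where 0.485% were called.

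Some values that were not called changed sign, and the cause was not tested. In the KO-labelled preshock comparison these were Lif, -0.45 in the main setting, with the mean of its probe sets (0.20) or at 1450160_at (0.85), Tnfaip3 without arrays 5 and 6 (-0.0019), Nfkbia at 1438157_s_at (0.043) and 1448306_at (0.045), Cxcl1, 0.58 in the main setting, at 1457644_s_at (-0.035) and Ptgs2 at 1417263_at (-0.041). The Socs3 difference between preshocked lines was -0.10 with median centring, against 0.39. Without each array in turn, Tnfaip3 ranged between -0.033 and 0.57 in the KO-labelled line, and Ccl2 between -0.030 and 0.62, Lif between -0.68 and 0.080 and Ptgs2 between -0.035 and 0.14 in the rescue-labelled line. Over all alternatives the adjusted p of Cxcl1 lay between 0.0422 and 0.99998 in the KO-labelled and between 0.0384 and 0.99999 in the rescue-labelled line.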
